A study of Mus musculus with 6 samples.

Results

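The N-myc downstream regulated gene (NDRG) family of the mouse has 4 members, Ndrg1, Ndrg2, Ndrg3 and Ndrg4, which were followed here in MS-5 stromal cells cultured alone or in contact with leukaemic cells. These 4 genes, of the 35968 with a transcript in the deposited files, were taken by name. The family was chosen by measured values of this comparison, since it was selected on the higher Ndrg1 level in co-culture. The co-culture values of Ndrg1 are therefore given as a description without a test, whereas Ndrg2, Ndrg3 and Ndrg4 came in as its relatives. MS-5 is a mouse bone marrow stromal line that maintains haematopoietic cells, and SKM-1 is a human acute myeloid leukaemia (AML) line. The first group was MS-5 cells cultured alone (MS-5 only, libraries MO1, MO2 and MO3). The second group was MS-5 cells that had carried SKM-1 cells for 24 hr, plated at 4 AML cells per stromal cell and 750000 SKM-1 cells per ml over a confluent stromal layer (co-culture, libraries MC1, MC2 and MC3). Both groups were grown in the same medium with serum, and before RNA was extracted the stromal layer was washed and treated with mild trypsin, a step meant to take off leukaemic cells still attached. All libraries come from the same line, and the labels do not say whether the 3 libraries came from separate cultures, so that p-values measure only the spread between these libraries.

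NDRG proteins have the fold of alpha/beta hydrolases but are not known to act as enzymes. NDRG1 is a widely expressed cytoplasmic protein whose gene is induced by low oxygen, iron chelation, differentiation and stress and repressed by the MYC proteins. NDRG2 is best known from astrocytes, muscle and other differentiated tissues, NDRG3 as a protein that is hydroxylated by the prolyl hydroxylase PHD2 for degradation and that binds lactate, and NDRG4 from heart and brain.

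The NDRG genes are 4 separate loci (GRCm38, GENCODE M21). Ndrg1 (ENSMUSG00000005125.13) lies at chr15:66929318-66969640 on the minus strand, Ndrg2 (ENSMUSG00000004558.15) at chr14:51905271-51914158 on the minus strand, Ndrg3 (ENSMUSG00000027634.14) at chr2:156927345-156992056 on the minus strand and Ndrg4 (ENSMUSG00000036564.17) at chr8:95676980-95715119 on the plus strand. Their coding exons are of one plan. In the main coding transcript of each gene, 11 of 12 consecutive coding exons had the same length in all 4 genes, in order 106, 121, 63, 61, 87, 57, 104, 52, 48, 36 and 52 bases, 787 bases in all. The exon between those of 104 and 52 bases differed, with 57 bases in Ndrg1 and Ndrg4, 45 in Ndrg2 and 66 in Ndrg3. Over the shared exons the bases were 71.2% identical between Ndrg1 and Ndrg4, 70.5% between Ndrg1 and Ndrg3 and 63.9% between Ndrg1 and Ndrg2. The family members can thus be told apart in sequencing reads. Of all stretches of 31 bases in the transcripts of Ndrg1, none occurred in another NDRG gene, and 3 stretches were shared between Ndrg2 and Ndrg4.

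Ndrg1 differs from its relatives near the end of its coding sequence, in a stretch repeated in tandem that holds residues phosphorylated by the kinase SGK1 and then by GSK3. The repeat is shown because it marks the member that was higher in co-culture. It covers coding bases 1012 to 1101 of 1182 in transcript Ndrg1-201, in exon 16 at chr15:66930951-66931040 (minus strand, GRCm38). The 3 units are written 5′ to 3′ on the coding strand as in the GENCODE M21 transcript, with capitals for the 24 of 30 bases equal in all units.
Ndrg1 unit 1: GAGGGcaCCCGtAGCCGCTCcCAtACCAGc
Ndrg1 unit 2: GAGGGccCCCGaAGCCGCTCgCAcACCAGt
Ndrg1 unit 3: GAGGGgtCCCGtAGCCGCTCcCAtACCAGt
The best run of 3 neighbouring 30-base units in the other genes had 5 such bases in Ndrg2, 8 in Ndrg3 and 6 in Ndrg4. In Ndrg3 and Ndrg4, by contrast, a 39-base exon near the end of the coding sequence is present in some transcripts and absent from others. It is shown because their isoforms differ by it, though also at the transcript ends. It is exon 16 of 17 of Ndrg3-201, at chr2:156929932-156929970 (minus strand), and exon 14 of 15 of Ndrg4-202, at chr8:95712325-95712363 (plus strand). Capitals mark the 18 of 39 bases (46.2%) equal in both exons.
Ndrg3-201 exon 16: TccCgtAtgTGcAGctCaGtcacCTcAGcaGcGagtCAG
Ndrg4-202 exon 14: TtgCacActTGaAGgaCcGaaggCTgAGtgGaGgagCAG

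The 6 libraries held between 23978881 and 35694987 estimated counts, and they differed in ways the groups do not explain. MO2 and MC3 stood apart from the other 4 libraries. They had counts on 65170 and 66456 transcripts against 51533 to 57350, mitochondrial shares of 6.03% and 5.89% against 10.5% to 13.1%, and 3.39% and 3.42% of all counts on transcripts annotated as retaining an intron against 1.49% to 1.64%. Since each group holds 1 such library, values are also compared between MC3 and MO2 and between the remaining libraries. The stromal label held in the data, as Col1a1, Col1a2, Pdgfrb and Cxcl12 had counts in every library and the summed level of 12 stromal markers was 1523 to 3374 TPM (the length-corrected share of each transcript, scaled to a fixed total) in MS-5 only against 2145 to 4051 TPM in co-culture, with none of the 12 passing the test. In edgeR, 1 of the 12 had an unadjusted p under 0.05, against 14.3% of all genes tested. The summed level of 20 leukocyte markers was 19.6 to 40.5 TPM in MS-5 only but 145, 728 and 213 TPM in MC1, MC2 and MC3, and 10 of the 15 tested were called higher at an adjusted p of 0.1 (edgeR), against 3.71% of all genes. In 14 of the 15, every co-culture library was above every MS-5 only library, against 11.6% of all genes. Irf8 had 0 counts in MO1, MO2 and MO3, and Vav1 had 1, 0 and 0. Such genes passed the filter on low counts only through co-culture, so that the counts of 10 and 14 are no test of a rise. No leukocyte marker was at 0 in every library, but Ly86 had 1 count, in MC1. Fcer1g, not tested, had 6, 3 and 1 counts in MS-5 only against 2, 0 and 2 in co-culture. Of the 15 tested, 14 had a positive log2 fold change, and Cd53 was at -0.11. The index held mouse transcripts, and the part that reads of human SKM-1 RNA played in any NDRG value was not tested.

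Ndrg1 was the most abundant member in every library. Its level, in CPM (counts relative to library size, scaled by TMM factors), was 197 in MO1, 156 in MO2 and 189 in MO3, and 501 in MC1, 347 in MC2 and 297 in MC3. Every co-culture library was above every MS-5 only library, which also held for 11.6% of all genes tested (the reverse held for 9.6%), and MC1 was the highest. The group means were 181 ± 21.5 CPM (SD, n = 3) for MS-5 only and 382 ± 107 CPM (SD, n = 3) for co-culture. The fitted log2 fold change was 1.08 (SE 0.24), a 2.11-fold higher level in co-culture. These values rest on 4175 to 4933 estimated counts per MS-5 only library and on 16427, 8342 and 10205 counts in MC1, MC2 and MC3. Over all 13221 genes tested the median log2 fold change was -0.02.

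The Ndrg1 values were also described by library. The family was selected on the same 6 libraries, so that the ratios below describe the size of the difference and give no support for its direction. MC3 over MO2 gave a ratio of 1.90, and MC1 and MC2 over MO1 and MO3 gave 2.20. Without MC2, the library with the most leukocyte marker signal, the ratio of mean CPM was 2.21. Leaving out 1 library at a time, the fitted log2 fold change lay between 0.82, without MC1, and 1.23, without MC3. The size was moved most by MC1, whose level was 2.77 times the MS-5 only mean, against 1.92 for MC2 and 1.64 for MC3. In RNA from a whole layer of cells, fewer cells of a type and less RNA per cell cannot be told apart.

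**Figure D1:**
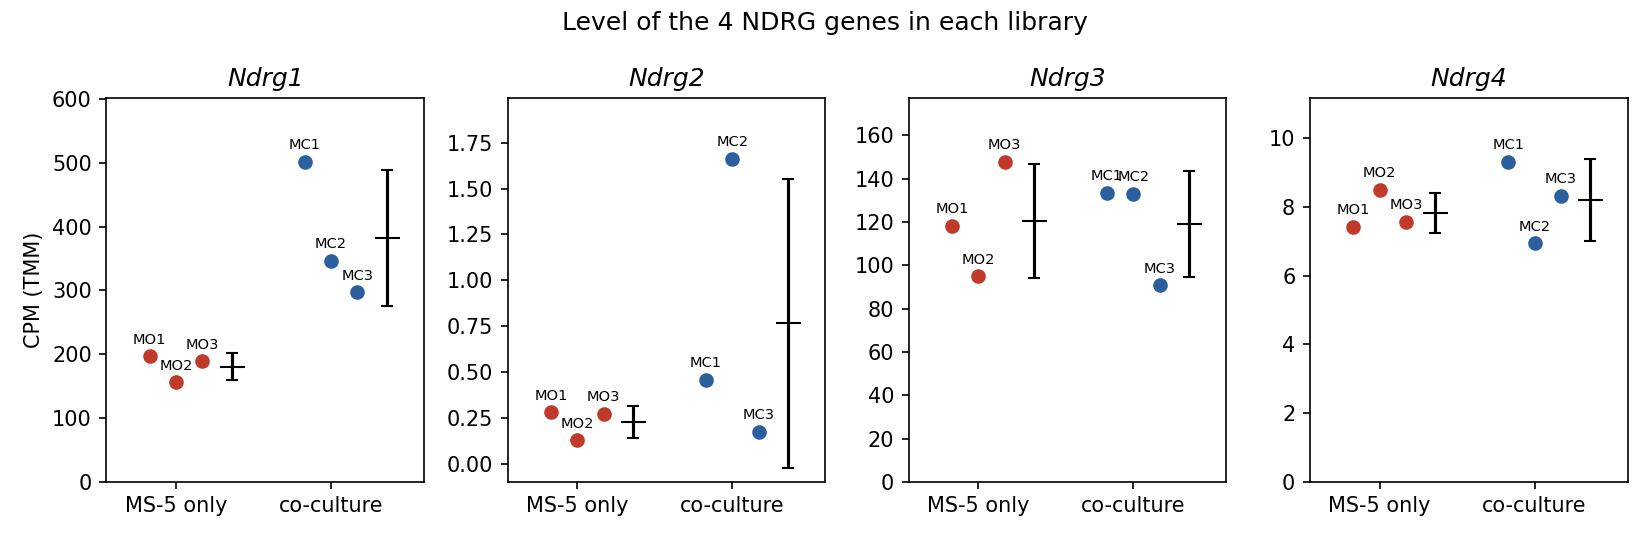
Level of each NDRG gene (vertical axis, TMM-scaled CPM, with a scale of its own in each panel) in the 6 libraries, MS-5 only in red and co-culture in blue. The horizontal tick and bar beside each group are its mean and SD (n = 3). The 3 co-culture libraries lie above the MS-5 only libraries for Ndrg1 (297 CPM and more against 197 CPM and less), and the groups overlap for the other 3 genes on this scale.

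Ndrg3, the next member by level, had nearly equal group means. Its level was 118, 94.9 and 148 CPM in MO1, MO2 and MO3 and 133, 133 and 90.8 CPM in MC1, MC2 and MC3, from 2963 to 4372 counts per library. The 2 groups overlapped throughout. Means were 120 ± 26.4 CPM (SD, n = 3) in MS-5 only against 119 ± 24.5 CPM (SD, n = 3) in co-culture. The log2 fold change was -0.02 (SE 0.23), with an adjusted p of 0.993 in the quasi-likelihood fit of edgeR, Benjamini-Hochberg adjusted across all genes. Its 95% interval ran from 0.678-fold to 1.45-fold, so that a change of the size fitted for Ndrg1 lay outside it while smaller changes in either direction did not. Of all genes tested, 3.71% were called higher and 0.666% lower at an adjusted p of 0.1.

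Within each group, the lowest CPM of Ndrg3 was in the library that stood apart. On this scale MO2 was 0.714 times the mean of MO1 and MO3, and MC3 was 0.682 times the mean of MC1 and MC2. For Ndrg1 the same ratios, also in CPM, were 0.810 and 0.701. On the TPM scale, which corrects for transcript length and is scaled to a fixed total, Ndrg3 was 53.4, 65.7 and 65.4 in MS-5 only against 59.5, 60.5 and 63.5 in co-culture, and MO2 and MC3 were no longer the lowest. The order of libraries for Ndrg3 thus depends on the scale, and the groups overlapped on both. The part of the library split in the Ndrg3 values was not tested.

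Ndrg4 was present at a low level in MS-5 cells. Its values were 7.42, 8.50 and 7.57 CPM in MO1, MO2 and MO3 and 9.31, 6.94 and 8.33 CPM in MC1, MC2 and MC3, from 167 to 305 counts per library. MC1 was the highest and MC2 the lowest of the 6, so that the co-culture libraries enclosed those of MS-5 only. The log2 fold change was 0.07 (SE 0.19, adjusted p = 0.957, edgeR), with a 95% interval from 0.769-fold to 1.42-fold. On the TPM scale MO2 (8.13) and MC3 (6.89) were above the other libraries (2.83 to 3.96).

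Ndrg2 was close to the limit of detection. It had 7, 4 and 6 estimated counts in MO1, MO2 and MO3 and 15, 40 and 6 in MC1, MC2 and MC3, and it did not pass the filter on low counts. It was therefore left out of the edgeR comparison. In CPM its values were 0.279, 0.127 and 0.272 in MS-5 only against 0.458, 1.66 and 0.175 in co-culture, so that the groups overlapped and MC2 stood out. On the TPM scale they did not overlap, with 0.710, 0.224 and 0.299 TPM in MS-5 only against 0.858, 7.48 and 1.29 TPM in co-culture, on the same few counts. In CPM, the groups did not overlap for 21.2% of all genes tested, in either direction, and the share in TPM was not counted. The ratio of mean CPM, co-culture over MS-5 only, was 3.38 with all libraries and 1.40 without MC2. MC2 was also the library with the highest summed leukocyte markers, and their part in the Ndrg2 counts was not tested. When genes with 5 counts in 3 libraries were admitted to the test, Ndrg2 had an adjusted p of 0.459 (edgeR), and with no filter it was 0.566.

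Levels of different genes can be compared per length, in TPM. In MS-5 only, Ndrg1 had 78.1, 96.0 and 73.0 TPM, above Ndrg3 in the same libraries. In co-culture Ndrg1 had 201, 131 and 184 TPM, so that the order Ndrg1, Ndrg3 held in all 6 libraries. Ndrg4 (2.83 to 8.13 TPM) was below Ndrg3 in each. Ndrg2 ranged from 0.224 to 7.48 TPM and overlapped with Ndrg4, which it exceeded in MC2. Most of the 7.48 TPM of Ndrg2 in MC2 fell on transcripts of 384, 427 and 435 bases, for which few counts give a high TPM. Among protein-coding genes the mean TPM of Ndrg1 was at percentile 93.2 in MS-5 only and 97.1 in co-culture, and that of Ndrg3 at 90.7 and 91.0. The other members were at 58.4 and 57.5 (Ndrg4) and at 46.1 and 54.8 (Ndrg2).

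The make-up of the family differed with the level of Ndrg1. The 4 genes summed to 135, 170 and 142 TPM in MO1, MO2 and MO3 and to 265, 202 and 255 TPM in MC1, MC2 and MC3. Ndrg1 made up 57.6%, 56.4% and 51.5% of the summed NDRG TPM in MO1, MO2 and MO3 and 75.7%, 65.0% and 71.9% in MC1, MC2 and MC3, with no overlap. The means were 55.2% ± 3.25 and 70.9% ± 5.44 (SD, n = 3 each). The share of Ndrg3 was 41.4% ± 4.10 and 25.8% ± 3.80, while its own TPM had means of 61.5 and 61.2. Since the shares add up to a fixed total and hold the Ndrg1 values that led to the choice of the family, they are given without a test.

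**Figure D2:**
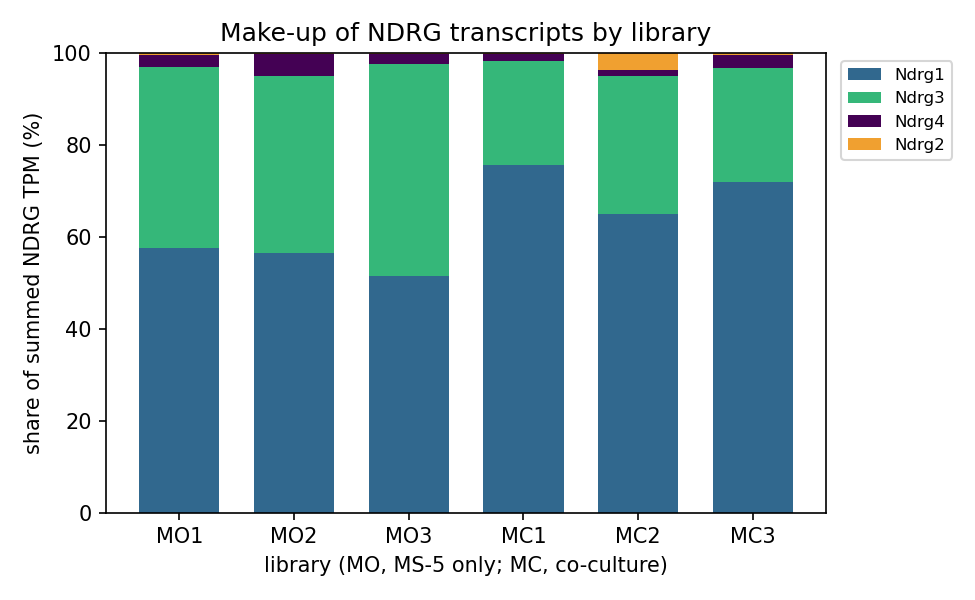
Share of each NDRG gene in the summed TPM of the 4 genes (vertical axis, percent) for each library (horizontal axis). Ndrg1 (blue) fills 51.5% to 57.6% of the bar in MS-5 only against 65.0% to 75.7% in co-culture, and Ndrg3 (green) fills most of the rest.

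The isoforms of each gene were then examined. Of the 13 transcripts of Ndrg1, 8 had a count in any library, and Ndrg1-201, the full-length coding transcript of 2889 bases in 16 exons, held nearly all of the gene. Its share of Ndrg1 TPM was 99.3%, 98.2% and 99.3% in MS-5 only against 99.0%, 99.5% and 98.3% in co-culture. The higher level in co-culture was therefore a higher level of Ndrg1-201, from 72.5 to 94.3 TPM in MS-5 only against 131 to 199 TPM in co-culture. No other Ndrg1 transcript reached 10% of the gene in any library. None of the 2859 stretches of 31 bases in Ndrg1-201 occurred in another gene.

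The small remainder of Ndrg1 followed the split between libraries. Its intron-retaining transcripts, Ndrg1-205 and Ndrg1-212, had 0, 61.7 and 3.68 estimated counts in MO1, MO2 and MO3 and 9.11, 11.5 and 142 in MC1, MC2 and MC3. That is 1.26% of the gene's counts in MO2 and 1.39% in MC3, against 0.138% or less elsewhere. The same libraries held the highest share of intron-retaining transcripts over all genes, and the part of the library split in these isoform values was not tested. An antisense gene annotated over the end of Ndrg1, Gm17035, was not analysed here.

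Ndrg3 was made up of 2 coding transcripts that differ by the 39-base exon shown above. They also differ in the first exon, of 45 bases in Ndrg3-201 and 58 in Ndrg3-202. Ndrg3-202, without the 39-base exon, held 82.4%, 80.4% and 78.9% of Ndrg3 TPM in MS-5 only against 84.5%, 85.2% and 81.6% in co-culture. Ndrg3-201, with it, held 15.5%, 16.7% and 18.0% in MS-5 only against 15.3%, 7.98% and 15.7% in co-culture. As a fraction of the pair, TPM on Ndrg3-201 was 15.9%, 17.2% and 18.6% in MO1, MO2 and MO3 and 15.3%, 8.56% and 16.1% in MC1, MC2 and MC3. The groups overlapped, and MC2 was below all others. An exact permutation test (two-sided) on 3 and 3 libraries has 0.1 as its smallest p, and no isoform share was tested. Ndrg3-203, a coding transcript whose last exon of 3249 bases runs into introns of Ndrg3-202, had 65.9 counts in MO2 and 53.2 in MC3 against 3.71 to 15.7 elsewhere. Of the stretches of 31 bases, 6.27% in Ndrg3-201, 6.34% in Ndrg3-202 and 8.05% in Ndrg3-203 also occurred in other genes, where reads could be assigned either way.

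Ndrg4 had 3 transcripts over 10% of its TPM in any library. Ndrg4-203, without the 39-base exon, held 83.4%, 51.4% and 86.9% of Ndrg4 TPM in MS-5 only against 70.2%, 93.0% and 60.2% in co-culture. Ndrg4-202, with the exon, had 15.6, 37.6 and 19.1 estimated counts in MS-5 only against 86.0, 7.78 and 51.2 in co-culture. The first exon has 141 bases in Ndrg4-202 and 115 in Ndrg4-203, and the last has 1942 and 1779. The split between them need not come from reads on the 39-base exon. As a fraction of the pair, TPM on Ndrg4-202 was 7.91%, 14.5% and 10.6% in MO1, MO2 and MO3 and 26.7%, 4.32% and 17.7% in MC1, MC2 and MC3. The co-culture libraries were the 2 highest and the lowest of the 6. The third transcript, Ndrg4-208, retains an intron and held 20.8% of Ndrg4 TPM in MO2 and 15.6% in MC3, on 10 and 7 estimated counts, and was listed at 0 in the other 4 libraries. Without a length correction the CPM of Ndrg4 in those libraries was within the range of the rest.

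Ndrg2 counts were spread over 8 of 13 transcripts. The full-length coding transcripts Ndrg2-201 and Ndrg2-202 together had at most 10.3 counts in a library, in MC1. In MC2, the short intron-retaining transcripts Ndrg2-203, Ndrg2-206 and Ndrg2-205 had 16.8, 14.8 and 6.80 estimated counts and Ndrg2-201 had 1.55. The remaining transcripts over 10% of Ndrg2 TPM in a library, Ndrg2-207, Ndrg2-208 and Ndrg2-209, had at most 3.56 counts, so that no isoform of Ndrg2 could be followed at this depth.

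**Figure D3:**
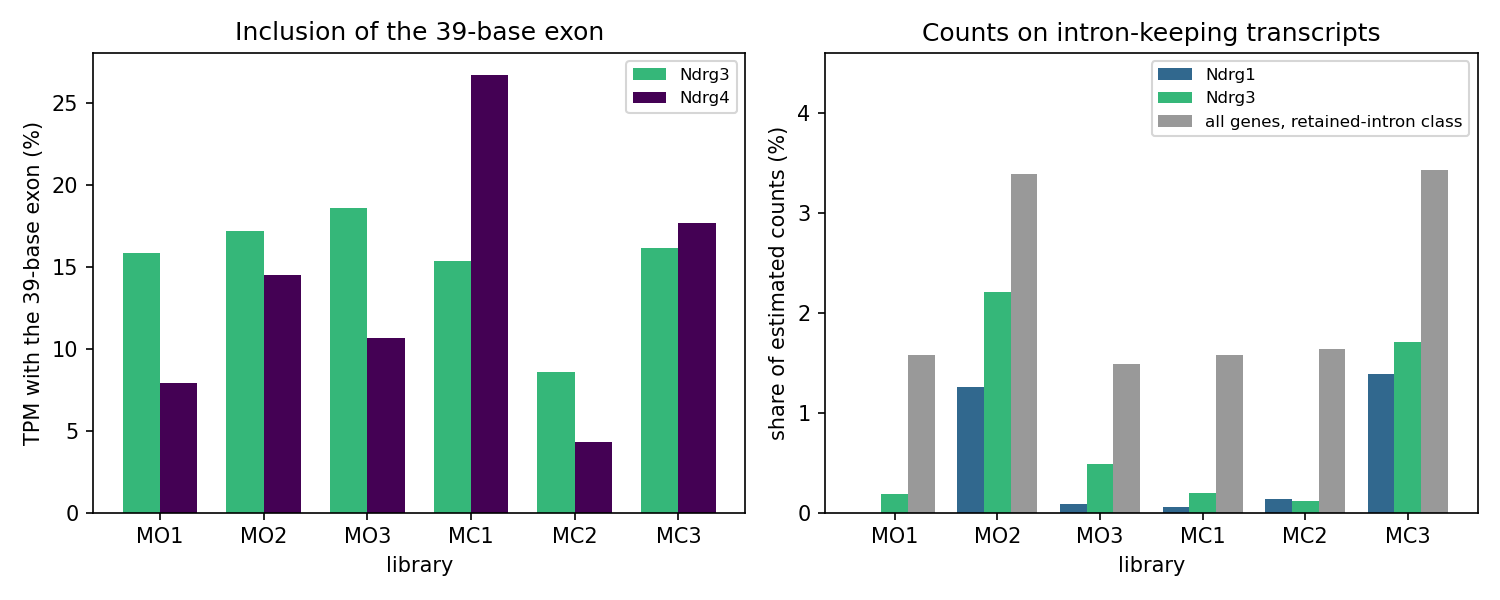
Left, TPM with the 39-base exon as a percentage of the 2 coding transcripts that include or skip it, for Ndrg3 (green) and Ndrg4 (purple) in each library. Right, estimated counts on intron-keeping transcripts of Ndrg1 (blue) and on Ndrg3-203 (green) as a percentage of the gene's counts, beside the retained-intron class over all genes (grey). On the left MC2 is lowest for both genes (8.56% and 4.32%), and MO2 and MC3 have the highest bars on the right.

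To place Ndrg1 among its known regulators, a list of 14 genes was examined: the hypoxia-inducible factors and the enzymes that sense oxygen for them, the MYC family, Egr1 and Trp53. Over all genes 4.38% were called at an adjusted p of 0.1 in either direction. Of the 11 regulators tested, 1 was called, and it was higher. This was Egln1, which encodes the prolyl hydroxylase PHD2, with 80.2, 50.5 and 76.5 CPM in MS-5 only against 180, 154 and 109 CPM in co-culture. Every co-culture library was above the MS-5 only libraries for Egln1, as in 11.6% of all genes tested, and its log2 fold change was 1.10 (SE 0.26, adjusted p = 0.0968, edgeR). The call was at the edge of the threshold, and over 17 alternatives its adjusted p ranged from 0.00223 to 0.300, with the log2 fold change between 0.91 and 1.28. The median log2 fold change of the tested regulators was 0.19, against -0.02 over all genes.

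The 2 most abundant of the other regulators did not pass the test. Egr1, an immediate-early transcription factor, had 51.4, 617 and 69.0 CPM in MS-5 only against 169, 109 and 918 CPM in co-culture (log2 fold change 0.70, SE 1.18, adjusted p = 0.902, edgeR). Its high libraries were MO2 and MC3, and the direction turned to -0.83 without MC3. Trp53, which encodes the tumour suppressor p53, had 263, 168 and 212 CPM in MS-5 only against 175, 157 and 115 CPM in co-culture (log2 fold change -0.52, SE 0.23, adjusted p = 0.388, edgeR). When MO2 and MC3 were set apart by a covariate in edgeR, 30.2% of all genes were called, Egr1 among the higher ones (log2 fold change 0.99, SE 0.22, adjusted p = 0.0307) and Trp53 among the lower ones (-0.52, SE 0.10, adjusted p = 0.0210). That fit called 6 of the 11 regulators, 4 higher and 2 lower.

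The RNA of the kinases that phosphorylate the NDRG1 protein was examined next. Of 12 genes for SGK and GSK3 kinases, PDK1 kinase (Pdpk1) and the mTORC2 complex, 10 were tested. By edgeR 0 of the 10 were called (4.38% over all genes). Among the 10, 1 had an unadjusted p under 0.05 (14.3% over all genes), and 1 was called by the DESeq2 Wald test (9.62% over all genes). These shares are near those of all genes, in a list this short. Sgk1, the kinase that acts on the repeat of NDRG1, had 163, 145 and 135 CPM in MS-5 only against 184, 167 and 261 CPM in co-culture. The fit gave Sgk1 a log2 fold change of 0.47 (SE 0.20, adjusted p = 0.376, edgeR), and the order of groups, with every co-culture library higher, was that of 11.6% of all genes. The value for Sgk1 was 0.25 without MC3 and 0.77 with an offset for effective length, neither called, and it was called with the covariate (0.44, adjusted p = 0.0857), as were 30.2% of all genes. Gsk3b had means of 151 ± 16.6 and 152 ± 3.21 CPM (SD, n = 3 each), with an adjusted p of 0.998 by edgeR. The gene with the unadjusted p under 0.05 was Mlst8, a subunit shared by the mTOR complexes, which is named after its values were seen. It had 36.3 CPM in MS-5 only against 25.1 CPM in co-culture (log2 fold change -0.54, SE 0.15, adjusted p = 0.146, edgeR).

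Genes for proteins tied to NDRG function, such as the recycling GTPase Rab4a, the tetraspanin Cd82 and beta-catenin, made up a list of 8. Of these, 6 were tested and 0 called by edgeR, against 4.38% of all genes. Among the 6, 1 had an unadjusted p under 0.05 and 1 was called by the DESeq2 Wald test, beside the same 14.3% and 9.62% over all genes. Ctnnb1, which encodes beta-catenin, had 537 ± 24.5 CPM in MS-5 only against 482 ± 17.0 CPM in co-culture (SD, n = 3 each), with a log2 fold change of -0.16 (SE 0.15, adjusted p = 0.771, edgeR). Errfi1, an inhibitor of the EGF receptor, had 84.7, 135 and 121 CPM in MS-5 only against 176, 181 and 193 CPM in co-culture (log2 fold change 0.69, SE 0.19, adjusted p = 0.149, edgeR). Errfi1 was the gene called by DESeq2 (adjusted p = 0.0204). With the covariate, which called 30.2% of all genes, Errfi1 (adjusted p = 0.0237, edgeR) and Rabac1 were called higher. The groups did not overlap for Errfi1, as in 21.2% of all genes tested in either direction. The E-cadherin gene Cdh1 had 0 counts in 5 libraries and 2 in MC2.

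Most of the genes widely known to be induced together with Ndrg1 at low oxygen were called higher in co-culture. Of 14 such genes, all tested, 9 were called higher and 0 lower, against 3.71% called higher over all genes, and the median log2 fold change was 1.08. This list was written with earlier results of these data known, so that its count is not independent evidence of a direction. The 2 with the lowest adjusted p were Bnip3, a mitochondrial protein that promotes mitophagy, and Pdk1, the kinase that inhibits pyruvate dehydrogenase. Bnip3 had 23.3, 31.6 and 33.9 CPM in MS-5 only against 214, 176 and 178 CPM in co-culture (log2 fold change 2.68, SE 0.19, adjusted p = 0.0269, edgeR). Pdk1 had 27.5, 27.2 and 32.1 CPM in MS-5 only against 148, 116 and 133 CPM in co-culture (log2 fold change 2.19, SE 0.15, adjusted p = 0.0269, edgeR).

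The other 7 genes called were Ndufa4l2, Ankrd37, Slc2a1, P4ha1, Ddit4, Ero1l and Adm. Their adjusted p ran from 0.0664 (Ndufa4l2) to 0.0865 (Adm) in edgeR. Over 17 alternatives the call was lost in 12 for Adm, 9 each for Ankrd37 and Ero1l and 7 for Ddit4. It was lost in 5 for P4ha1 and in 3 each for Ndufa4l2 and Slc2a1, as for Bnip3 and Pdk1. Ndufa4l2, a mitochondrial protein, had the largest fold change on the list, from 6.21 ± 1.57 CPM to 52.8 ± 13.7 CPM (SD, n = 3 each, log2 fold change 3.09, SE 0.27). Slc2a1, the glucose transporter GLUT1, rose from 42.4 to 113 CPM, and P4ha1, a collagen prolyl hydroxylase subunit, from 214 to 539 CPM. Log2 fold changes were 2.14 (SE 0.42) for Ankrd37 and 1.07 (SE 0.16) for the mTORC1 inhibitor Ddit4. They were 0.83 (SE 0.16) for the oxidoreductase Ero1l and 0.82 (SE 0.18) for the peptide hormone gene Adm. Leukocyte marker signal was present in the same 3 co-culture libraries, and its part was not tested.

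The other 5 members of the list did not pass, and the 2 most abundant of them were Vegfa and Higd1a. Vegfa, the vascular growth factor, had 83.1, 102 and 49.7 CPM in MS-5 only against 154, 113 and 234 CPM in co-culture (log2 fold change 1.10, SE 0.35, adjusted p = 0.209, edgeR). Higd1a, a mitochondrial protein, had 49.0, 33.3 and 50.9 CPM in MS-5 only against 101, 81.7 and 63.4 CPM in co-culture (log2 fold change 0.88, SE 0.24, adjusted p = 0.134, edgeR). Of the 14 genes, 2 had a log2 fold change below 0 and are named after their values were seen. Car9, a carbonic anhydrase, had 0.548 CPM in MS-5 only against 0.410 CPM in co-culture (log2 fold change -0.42, SE 0.56, adjusted p = 0.854, edgeR), on 8 to 26 counts per library. Pfkfb4, a regulator of glycolysis, had 17.7 CPM in both groups (log2 fold change -0.00417, SE 0.22). Leaving out MO1, MO2 or MO3 brought the calls by edgeR to 0 both on the list and over all genes, with 10, 12 and 11 of the 14 at an unadjusted p under 0.05, against 10.5%, 20.8% and 11.2% of all genes in those fits. The DESeq2 Wald test on all libraries called 11 of the 14 higher, against 6.9% of all genes, and edgeR with the covariate called 12, against 13.9%. Vegfa and Higd1a were among those called in both.

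**Figure D4:**
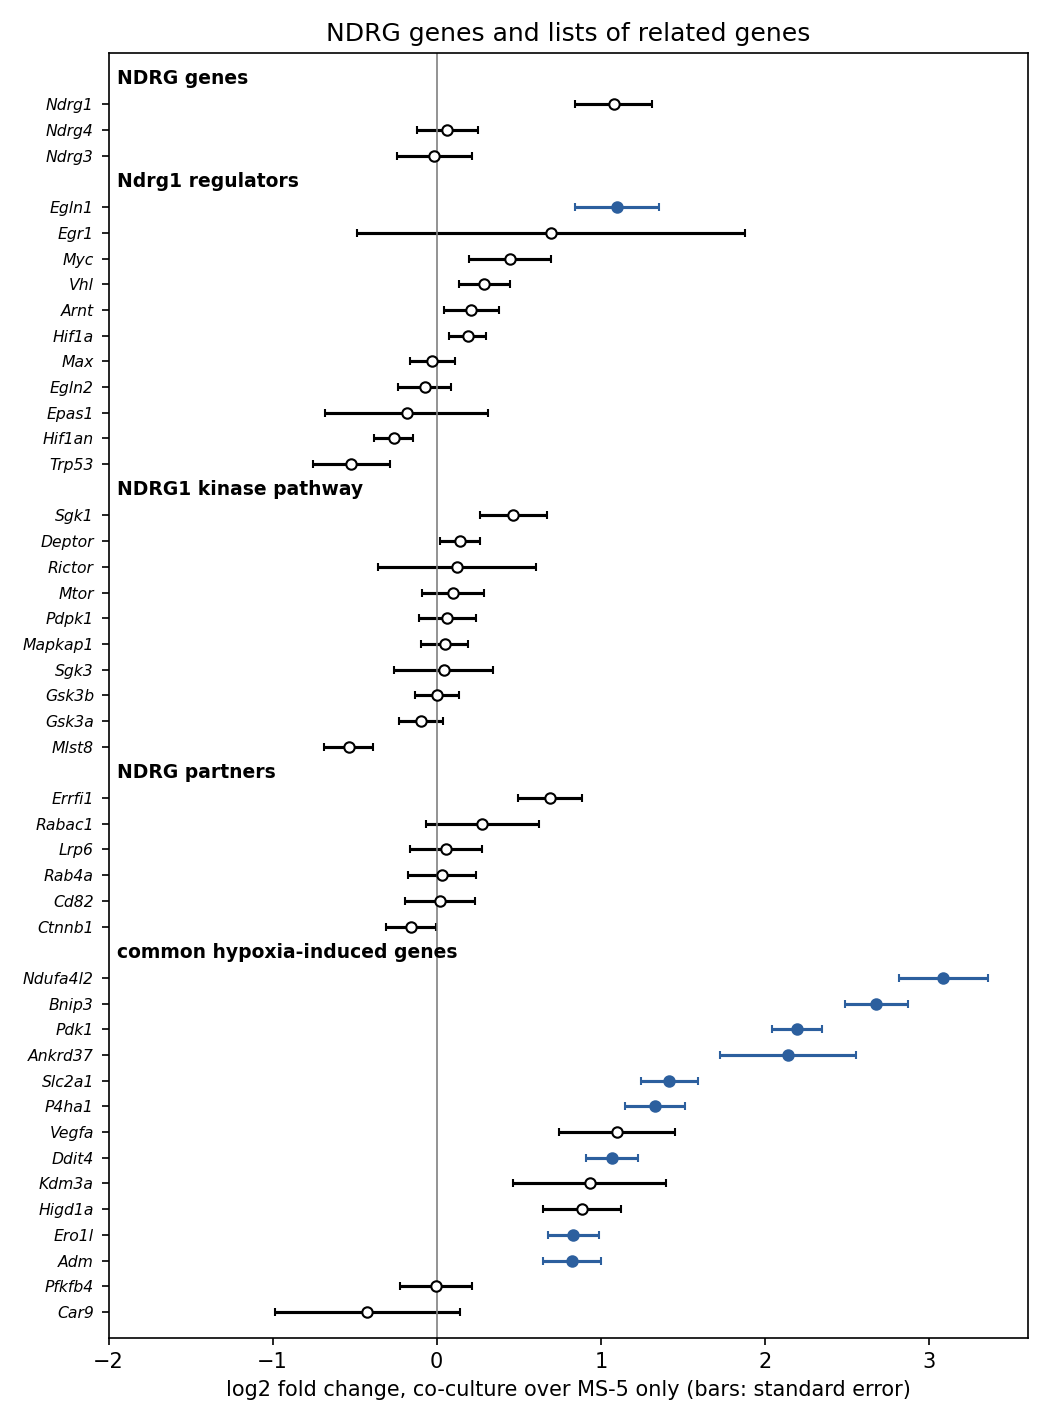
Log2 fold change, co-culture over MS-5 only (horizontal axis), of the 3 NDRG genes that passed the filter and of the tested members of 4 lists of related genes. Bars are standard errors from the edgeR fit, and filled blue points passed an adjusted p of 0.1 (for the NDRG genes no call is drawn). Ndrg1 is at 1.08, Ndrg3 at -0.02 and Ndrg4 at 0.07, and the hypoxia-induced genes, of which 9 are filled, spread from -0.42 to 3.09.

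Among 11982 genes with a mean of at least 1 CPM, the patterns nearest to that of Ndrg1 over the 6 libraries were those of Kctd11, Hilpda, Mt2, Gys1 and Csdc2. Likeness was measured as the root mean square distance between log2 CPM values centred on the mean of each gene, and it was 0.068 for Kctd11, 0.086 for Hilpda, 0.096 for Mt2, 0.115 for Gys1 and 0.116 for Csdc2. All 5 were lowest in MO2 and highest in MC1 in CPM, as was Ndrg1. In TPM, Ndrg1 was instead highest in MO2 among the MS-5 only libraries (78.1, 96.0 and 73.0 in MO1, MO2 and MO3). Kctd11, an adaptor of a ubiquitin ligase, had means of 16.0 CPM in MS-5 only against 34.8 CPM in co-culture. Hilpda, a lipid droplet protein, had 5.22 and 10.5 CPM, and Mt2, a metallothionein, had 78.1 and 148 CPM. Gys1, the muscle form of glycogen synthase, had 88.9 and 219 CPM, and Csdc2, an RNA-binding protein with a cold shock domain, had 2.40 and 4.94 CPM.

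The genes nearest to Ndrg3 were Cnpy2, Osgep and Ndufa7, at distances of 0.022, 0.026 and 0.034, and each was lower in MO2 and MC3 than in the other 4 libraries. Those nearest to Ndrg4 were Bnip1, Hexim2 and Hgs, at 0.045, 0.049 and 0.055. Their log2 fold changes lay between -0.02 (Ndufa7) and 0.12 (Hexim2). The distances describe these 6 libraries, which the genes share with their depth and their split.

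**Figure D5:**
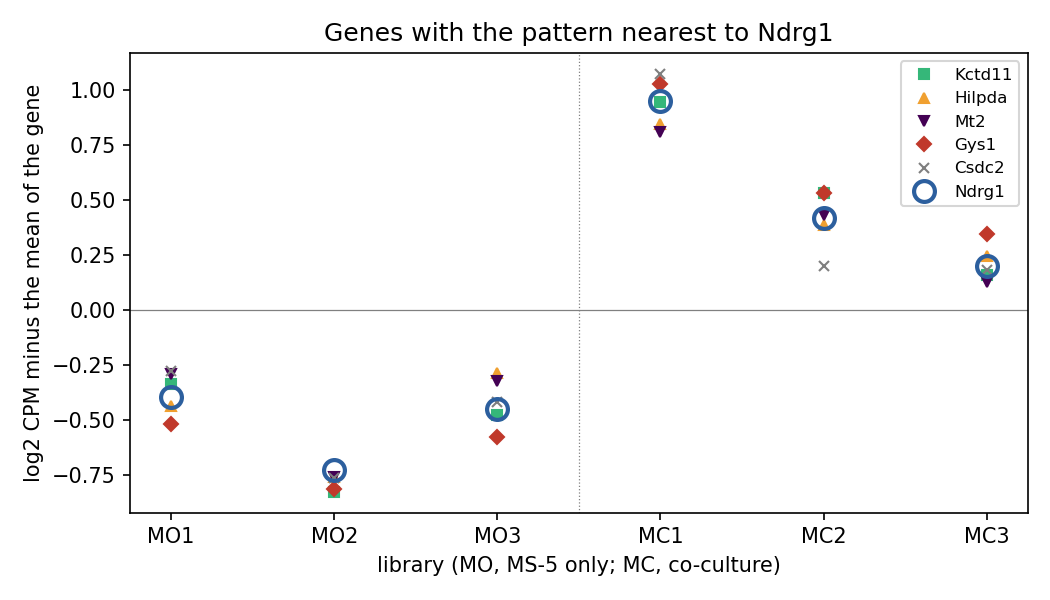
Log2 CPM of Ndrg1 (open circles) and of the 5 genes with the nearest pattern, each minus its own mean over the 6 libraries (vertical axis), by library (horizontal axis). All 6 genes are below their mean in the 3 MS-5 only libraries, lowest in MO2, and above it in the 3 co-culture libraries, highest in MC1.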

How the data were processed

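RNA of MS-5 cells cultured alone or with SKM-1 cells was sequenced from a stranded mRNA kit. Per the submitters' processing notes, FastQC 0.11.7, kallisto 0.43.0 and sleuth 0.30.0 were used. The authors deposited, per transcript and library, an estimated count without normalization between libraries and its TPM, against a mouse index. The strand setting of the counting is not given in the sources used here. Deposited effective lengths served a length correction. Of 118489 transcripts, 116728 matched GENCODE M21 (GRCm38) and 1761 were left out (0.476% to 0.562% of counts).

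Transcript counts were added up by gene and made whole numbers. Genes passing filterByExpr (13221 of 35968) were compared in a quasi-likelihood fit with edgeR 4.0.16 in R 4.3.3 (TMM factors 0.923 to 1.17, threshold of 0.1 on Benjamini-Hochberg adjusted p). Whether the replicate numbers pair the libraries is not known, and the main fit used no pairing. DESeq2 1.42.0 and limma 3.58.1 served as alternatives. TPM were summed per gene for levels and isoform shares.

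The members and lists were chosen with earlier results of these data known. Named were the 4 genes, their transcripts of at least 10% of TPM in a library, list members passing the threshold with the 2 most abundant others, and the genes nearest in pattern (log2 CPM with a prior count of 2). Ero1l is the annotation's symbol for Ero1a. Amino acid and promoter sequences were not used here. Identity of coding exons was counted without gaps.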

Additional observations from a re-analysis of the deposited data

How the results depend on the processing

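Under 17 alternatives the log2 fold change of Ndrg1 ranged from 0.82 to 1.23, and since the family was selected on a higher Ndrg1 in these libraries, its direction there is no sign of stability. Ndrg3 and Ndrg4 passed the threshold under none of theirs. The log2 fold change of Ndrg3 changed sign with an offset for effective length (1.95e-06), and ranged from -0.16 to 0.16 when 1 library was left out. That of Ndrg4 was -0.0409 in limma on log2(TPM + 0.5), -0.0422 with 0.1 and -0.0394 with 1 as the pseudocount, -0.0567 with the length offset, and -0.0486 to 0.17 with 1 library left out. The log2 ratio of Ndrg2 was 0.48 to 2.21 with 1 library left out, and no value was obtained for it in DESeq2, limma, the length offset, the block or the covariate fit, where it had been filtered out. Gsk3b, near 0, was negative with library size only (-0.00910), in limma with 0.5, 0.1 and 1 (-0.0450, -0.0451 and -0.0447), without a filter (-0.00037), with a filter of 5 counts (-0.00941), with the length offset (-0.0553) and, with 1 library left out, from -0.0586 to 0.0645. Egr1 ranged from -0.83 to 2.72 with 1 library left out.

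Counts of calls moved more. Over all genes 579 were called by edgeR, against 1268 by the DESeq2 Wald test, 264, 483 and 111 by limma with 0.5, 0.1 and 1, 3999 when MO2 and MC3 were set apart by a covariate (1835 higher and 2164 lower), 2 at an adjusted p of 0.05, and 0 to 549 with 1 library left out. The 0 was reached by leaving out MO1, MO2 or MO3, when 1478, 2819 and 1578 genes had an unadjusted p under 0.05. Without MC1 and MC2 the counts were 283 and 281. The call of Egln1, 1 regulator of Ndrg1, was lost (0 called) with a filter of 5 counts, the length offset, an adjusted p of 0.05 and the replicate block, and the number was 6 with the covariate (4 higher and 2 lower, where 30.2% of all genes were called) and 0 to 1 with 1 library left out. The kinase list had 1 call by DESeq2 (Mlst8) and 2 of 10 with the covariate (Sgk1 and Mlst8), and the partners had 1 (Errfi1) and 2 of 6, beside 9.62% and 30.2% of all genes. The hypoxia-induced genes had 5, 5 and 4 calls, all higher, in limma with 0.5, 0.1 and 1 (1.97%, 3.55% and 0.84% of all genes were called higher), 2 at 0.05, the 2 called over all genes, and 0 to 8 with 1 library left out. The cause of these shifts was not tested.

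Same-numbered libraries deviated from their group means with correlations of 0.53, -0.29 and -0.52. The libraries that stood apart, MO2 and MC3, carry different numbers, so that these values cannot show whether the numbers pair the libraries. With the replicate block, log2 fold changes were 1.05 for Ndrg1, -0.01 for Ndrg3 and 0.06 for Ndrg4, with 444 genes and 6 hypoxia-induced genes called.

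Isoform shares had no test. Co-culture minus MS-5 only, Ndrg1-201 differed by -0.003 percentage points (-0.36 to 0.32 with 1 library left out), Ndrg3-202 by 3.22 (2.40 to 4.30) and Ndrg4-203 by 0.55 (-10.7 to 7.69, and -3.78 as a share of counts). Estimated counts under 50 per library limit Ndrg2 and the rarer transcripts.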
